A study of Mus musculus with 64 samples.

Results

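Expression of Myc and 9 genes of its network was measured by RNA sequencing in mouse pancreatic tumor lines grown alone or with fibroblasts. The members were taken from a written list by gene symbol, and all 10 (Myc, Mycn, Mycl, Max, Mxd1, Mxd3, Mxd4, Mxi1, Mnt and Mlx) were present among the 39017 genes of the count table. Of the lines, 7 are clones of tumor cells from the KPC model, in which Pdx1-Cre drives recombination in the pancreatic epithelium, a mutant Trp53 allele included. By their metabolism the study put E, H and V into group 1 and the clones K, M, N and T into group 2, and the eighth line, KPC1, was assigned to neither. All lines had the same background, given as C57BL/6 mixed, and all were GFP-expressing tumor cells. The 64 libraries were 4 per line and culture, and in coculture the tumor cells had grown with fibroblasts for 48 h before they were sorted for GFP. The sources do not say whether mono-cultured cells passed through the sorter. They also do not say whether the 4 libraries of a group were separate cultures. In tests on single libraries, p-values therefore measure the spread between these libraries, which may be technical. In tests on sums of 4 libraries, p-values measure the spread between lines or clones. Each clone was grown from a single cell, so the values of a line describe that clone.

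Myc is a basic helix-loop-helix leucine zipper transcription factor that binds DNA as a dimer with Max, at the E-box and related motifs, and activates genes of ribosome production, nucleotide synthesis and growth. Mycn and Mycl are its paralogs. Mxd1, Mxd3, Mxd4, Mxi1 and Mnt compete for Max, occupy the same motif and repress through the Sin3 corepressor. Mlx is a parallel partner of the glucose-sensing Mondo factors and of some Mxd proteins and Mnt.

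Library totals lay between 11178721 and 21333683 counts, and each of the 64 libraries had its closest library within its own line and culture. Levels are given as CPM (counts scaled to a common library size) after TMM normalization, which corrects for library composition, or, between genes, as reads scaled by gene length and library size (RPKM). Among 10 ductal epithelium markers, 5 were at 1 CPM or more in every line in both cultures, among them Krt8, Krt18 and Krt19, and 3 (Epcam, Cldn4 and Cldn7) were under 1 CPM in every line, so that some defining epithelial genes were near or at 0 (at most 0.841 CPM, Cldn4 in K). Leukocyte markers summed to 0.529 CPM or less in every line. Fibroblast markers moved with coculture: 16 markers summed to between 425 and 1737 CPM in mono-culture and to between 1077 and 2410 CPM in coculture, and those under 1 CPM in every line went from 7 to 2. Fbln2 made up much of the highest mono-culture sums, with 1371 CPM in V and 1313 CPM in K. Postn, a fibroblast matrix gene, did not exceed 0.0503 CPM in any line alone and ran from 38.1 CPM (KPC1) to 73.5 CPM (K) with fibroblasts. The part of fibroblast RNA in the responses below was not tested, and in these bulk libraries fewer cells of a type and less RNA per cell cannot be told apart.

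The E-box to which the network's dimers bind has the palindromic core CACGTG, and this core stood in the RefSeq promoter windows (GRCm38.p6, 250 bases before to 50 after the transcription start) of 4 of the 9 members that have an entry. The same 6 letters were found in the windows of 8.09% of 27025 genes. The stretches are shown because they place the network's own motif beside Max and beside 3 genes whose products share partners or sites with Myc. Capitals mark the core, and each run reads 5′ to 3′ on the strand of the gene.
Max, chr12:76962222-76962275, minus strand: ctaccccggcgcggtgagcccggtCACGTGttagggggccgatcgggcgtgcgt
Mxd4, chr5:34187900-34187953, minus strand: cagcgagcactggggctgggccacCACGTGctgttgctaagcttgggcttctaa
Mnt, chr11:74830777-74830830, plus strand: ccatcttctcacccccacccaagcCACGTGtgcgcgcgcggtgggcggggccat
Mlx, chr11:101087226-101087279, plus strand: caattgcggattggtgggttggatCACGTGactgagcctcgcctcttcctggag
The core begins 3 bases before the start of Max, 219 before that of Mxd4, 123 before that of Mnt and 40 before that of Mlx. The core reads the same on both strands, so each match counts for both. A match is a description of these letters and not of binding. Of these 4 genes, Max and Mlx rose in coculture, Mxd4 fell, and Mnt did not pass the test, as given below.

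Myc was the most abundant member per length in every line. In mono-culture its RPKM averaged 100.2 ± 30.7 over the lines (SD, n = 8 lines), and its partner Max followed at 29.1 ± 4.90. The antagonists Mxi1, Mnt and Mxd4 were at 18.5, 18.5 and 11.6 RPKM, Mlx was at 16.8, and Mxd1 was at 4.33. Mxi1, Mnt and Mlx had overlapping ranges of lines (12.1 to 24.2, 15.2 to 21.99 and 12.2 to 20.3 RPKM). Whether these neighbors in the order differ within lines was not tested. Mycl, Mxd3 and Mycn were at 1.12, 1.04 and 0.173 RPKM. In coculture Myc reached 183 ± 54.5 RPKM, Max 32.5 ± 4.92 and Mlx 19.9 ± 3.82, while Mxd4 was at 6.59 ± 2.99, and the first and last places in the order were held by the same genes, Myc and Mycn. Myc made up between 96.7% and 99.9% of the summed RPKM of Myc, Mycn and Mycl in every library.

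**Figure D1:**
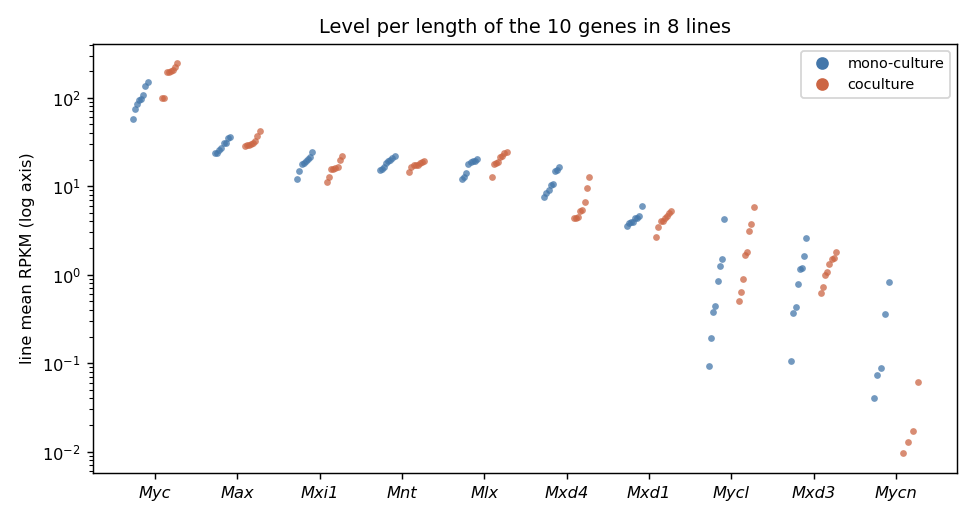
Mean RPKM of each member in each of 8 lines (points, each the mean of 4 libraries) in mono-culture and coculture, on a log axis. Points run from low to high within a gene, values of 0 (Mycn) are not drawn, and Myc lies above all other members in both cultures.

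The lines differed in all 10 members in mono-culture by edgeR's quasi-likelihood F-test over the 8 lines, at a Benjamini-Hochberg adjusted p under 0.1, which is the threshold for a call throughout. The background was high, since 95.1% of 14134 genes tested were called in the same comparison. Mycn passed the filter on low counts through mono-culture libraries, mostly those of V, so its call between lines was favored in advance. Mycl had the widest range among members with counts in every line, from 0.369 CPM in N to 18.02 CPM in KPC1, a 48.8-fold range (adjusted p = 7.89e-22, edgeR). Mxd1 had the weakest call (adjusted p = 0.0196, edgeR), lost without replicate 3. Mxd3 ran from 0.507 CPM in K to 6.22 CPM in E, Myc from 169 CPM in M to 427 CPM in KPC1, and Mxd4 from 65.5 CPM in KPC1 to 143 CPM in E. Max, Mxd1, Mnt and Mlx varied least, with a highest line 1.56, 1.56, 1.44 and 1.5 times the lowest. In the order of Myc levels in mono-culture (KPC1, N, V, H, E, T, K, M), the libraries of all 7 neighboring pairs overlapped. The order of Mxd4 was E, M, T, K, V, H, N, KPC1, and 6 of 7 neighboring pairs overlapped, T and K being the exception. M was therefore lowest in Myc and second in Mxd4, whereas KPC1 was highest in Myc and lowest in Mxd4.

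The next comparison asks how tumor cells of the 8 lines responded to fibroblasts. Myc rose and Mxd4 fell in coculture, and of the 5 antagonists Mxd4 and Mxi1 were called, both lower. On the sums of 4 libraries, with the line as a covariate (n = 8 lines), 7 of the 10 members were called by edgeR's quasi-likelihood test, 4 higher and 3 lower. In the background, 52% of 16246 genes were called, 26.8% higher and 25.2% lower. Myc was higher by 0.86 on the log2 scale (SE 0.10, adjusted p = 0.000578), Mycl by 1.41 (SE 0.35, adjusted p = 0.0106), Max by 0.17 (SE 0.06, adjusted p = 0.0345) and Mlx by 0.23 (SE 0.10, adjusted p = 0.0805). Mxd4 fell by 0.85 (SE 0.15, adjusted p = 0.00241), Mxi1 fell by 0.19 (SE 0.06, adjusted p = 0.0189) and Mycn was also lower (adjusted p = 0.00466), a call lost with limma on log2(RPKM + 1) (-0.17, adjusted p = 0.155). Mycn held 0 counts in E, K and M and passed the filter on low counts largely through mono-culture (191 counts in V and 63 in N). A fall was therefore favored in advance, and the call of Mycn is not support for a response. Mxd1 (log2 fold change -0.05), Mxd3 (0.47, adjusted p = 0.136) and Mnt (-0.07) were not called. The call of Mlx was lost without E, H, V, T or KPC1, without replicate 1 or 4 and without the filter on low counts (adjusted p from 0.109 to 0.204, edgeR), and Mxd3 was called without E (0.62, adjusted p = 0.0594, edgeR). With library numbers 1 to 43 alone, Max (0.15) and Mxi1 (-0.17) were not called, and the sign of Mxd1 turned without V (0.04), KPC1 or replicate 4.

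Myc, at chr15:61985391-61990374 on the plus strand of GRCm38, was higher in coculture in the mean of 8 of 8 lines. In E the 4 mono-culture libraries held 306, 235, 265 and 270 CPM and the coculture libraries 570, 455, 703 and 507 CPM. In H the values were 271, 285, 304 and 291 CPM alone and 449, 561, 752 and 476 CPM with fibroblasts. In V they were 294, 287, 344 and 294 CPM alone and 516, 679, 777 and 596 CPM with fibroblasts. All coculture libraries of these group 1 clones lay above all of their mono-culture libraries. In T, mono-culture gave 266, 243, 282 and 189 CPM and coculture 529, 701, 633 and 509 CPM. In N, mono-culture gave 368, 315, 417 and 411 CPM and coculture 463, 454, 688 and 659 CPM. In KPC1, mono-culture gave 447, 547, 342 and 374 CPM and coculture 697, 932, 639 and 624 CPM. These 3 lines were also fully separated, with N and KPC1 starting from the highest mono-culture levels. In M the libraries held 154, 159, 216 and 146 CPM alone and 215, 211, 321 and 352 CPM with fibroblasts, and 2 coculture libraries lay below the highest mono-culture library. In K they held 242, 175, 284 and 210 CPM alone and 321, 223, 319 and 279 CPM with fibroblasts, which overlapped.

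Fitted line by line over all 64 libraries, Myc was called higher in 7 lines, by 1.28 on the log2 scale in T (SE 0.18), 1.07 in V, 1.05 in E, 0.96 in H, 0.76 in KPC1, 0.70 in M and 0.58 in N (SE 0.18, adjusted p = 0.00997, edgeR). The exception was K, at 0.33 (SE 0.18, adjusted p = 0.227, edgeR). The call in M was lost without replicate 4 (0.50, adjusted p = 0.101, edgeR). Summed fibroblast markers in K were at 1625 CPM alone and 2410 CPM with fibroblasts, the second highest and the highest of the 8 lines. A single gene, Fbln2, made up 1313 and 950 CPM of these sums, while Postn in K went from 0.0503 to 73.5 CPM. Calls at this level were common, since 45.6% of 113072 gene-by-line tests were called, 23.7% higher and 21.9% lower. Of the 80 pairs of member and line, 38 were called, 22 higher and 16 lower. Library numbers in the labels form 2 runs, 1 to 43 and 44 to 64, and all 4 K mono-culture libraries belong to the second run. The 2 K coculture libraries of that run held 321 and 319 CPM, above all 4 mono-culture values, and the 2 of the first run held 223 and 279 CPM. Within the first run Myc was higher in coculture in 7 of 7 lines that have both cultures there, and within the second run in 5 of 5. The size moved with the run in T, the one line with 2 libraries of each culture in both, at 1.63 on the log2 scale in the first run and 0.92 in the second.

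**Figure D2:**
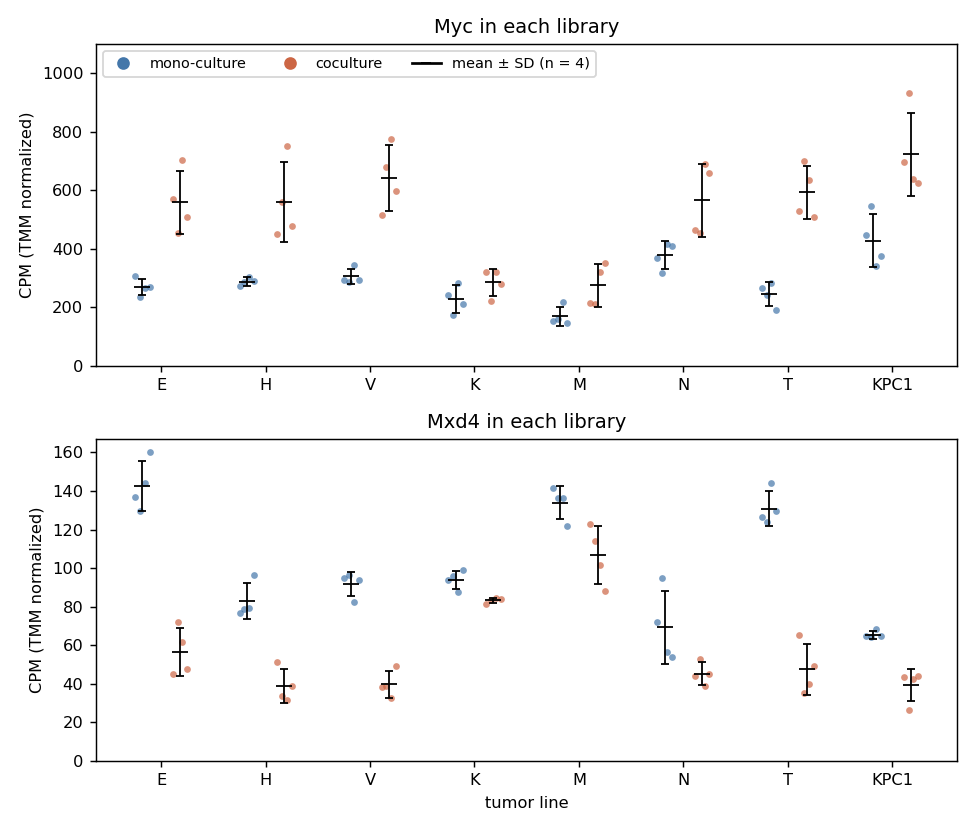
Myc (top) and Mxd4 (bottom) in each of the 64 libraries, in CPM, by line and culture, with the mean and SD of 4 libraries. Coculture libraries of Myc lie above those of mono-culture without overlap in 6 lines (not in K and M), and those of Mxd4 lie below in 7 lines (not in M).

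Mycl, the paralog found in small cell lung cancer, was called higher in 6 lines and was low throughout. In T it went from 0.818, 0.860, 0.840 and 0.820 CPM to 6.52, 8.94, 8.50 and 4.58 CPM, a log2 fold change of 3.09 (SE 0.34). In N it went from 0.225, 0, 0.897 and 0.357 CPM to 2.10, 2.38, 2.87 and 1.10 CPM (log2 fold change 2.55, SE 0.45). In E it went from 1.90, 1.64, 1.504 and 1.49 CPM to 5.53, 7.20, 9.01 and 7.81 CPM (log2 fold change 2.17, SE 0.31). H, V and M were called at 1.28, 1.32 and 0.93, and the libraries of all 6 lines were separated. KPC1 had the highest level in both cultures, 18.02 ± 5.45 CPM alone and 25.4 ± 4.63 CPM with fibroblasts (SD, n = 4), and was not called (0.50, SE 0.26). K was not called and had the opposite sign (-0.43, SE 0.31). Mycl remained at 5.78 RPKM or less in every line mean, against at least 98.5 RPKM for Myc in coculture.

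Mycn, the paralog of neural and embryonic tissue, was seen in 5 lines and lost counts in coculture. Summed over 4 libraries, V held 191 counts alone and 3 with fibroblasts, a ratio of 61.97 for mono-culture over coculture (95% exact interval 20.9 to 303). N held 63 and 13 counts, a ratio of 5.73 (3.12 to 11.4), H held 19 and 4, a ratio of 5.34 (1.77 to 21.6), and T held 17 and 2, a ratio of 7.55 (1.79 to 67.4). These intervals cover counting error and no spread between libraries. KPC1 held 8 counts alone and 0 with fibroblasts, which is at least 2.33-fold higher in mono-culture when 3 counts over the group are taken as the floor, and E, K and M held 0 in both cultures. In V the mono-culture libraries were at 2.24 CPM or more and the coculture libraries at 0.113 CPM or less, and V was the only line of the 5 whose libraries separated. By line, edgeR called V, N, H and T lower, and these calls except that of V were lost without single replicates (N without replicate 2, T without 3 or 4, H without 2, 3 or 4). In this fit Mycn passed the filter through mono-culture libraries alone, so calls as lower were favored in advance.

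The shared partner Max (chr12:76937269-76962201, minus strand) changed little. E rose from 46.1 to 56.5 CPM over its mono-culture libraries to 60.4 to 66.7 CPM over its coculture libraries, and V from 75.8 to 83.7 CPM to 86.6 to 102 CPM, without overlap in either. Max was called higher in E (log2 fold change 0.31, SE 0.08), V (0.22) and M (0.23), the last lost without replicate 2 or 4, and the values of the other 5 lines ran from -0.06 in N to 0.19 in K. Myc rose more than its partner, and the ratio of Max to Myc in RPKM was lower in coculture in the mean of every line, for example 0.252 ± 0.0436 against 0.152 ± 0.0223 in E (SD, n = 4). The smallest gap was in K, at 0.372 ± 0.0559 against 0.336 ± 0.0491.

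Mlx (chr11:101087277-101092207, plus strand) rose in group 1 clones and KPC1. V held 27.2, 26.5, 26.3 and 25.6 CPM alone and 47.02, 36.7, 42.6 and 35.6 CPM with fibroblasts, a log2 fold change of 0.62 (SE 0.11). H, KPC1 and E were called at 0.46, 0.40 and 0.33, that of E not without replicate 4 (0.23). None of the group 2 clones was called, with values from -0.12 in M to 0.10 in T. Mlx shares 385 exonic bases with Psmc3ip on the opposite strand, and the sources do not state whether reads were counted by strand. Psmc3ip was at 3.15 to 8.51 CPM in mono-culture line means and 4.80 to 15.3 CPM in coculture line means, and rose by 0.58 on the log2 scale (SE 0.14, adjusted p = 0.00793, edgeR), so part of the Mlx counts is uncertain.

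Among the antagonists, Mxd4 (chr5:34173883-34187720, minus strand) changed most. In T the libraries held 126, 124, 144 and 129 CPM alone and 65.2, 35.4, 39.8 and 49.3 CPM with fibroblasts, a log2 fold change of -1.47 (SE 0.16). In E they held 137, 130, 144 and 160 CPM alone and 45.03, 72.0, 61.6 and 47.4 CPM with fibroblasts (-1.34). In V they held 94.7, 96.2, 82.5 and 93.6 CPM alone and 38.1, 38.8, 32.5 and 49.1 CPM with fibroblasts (-1.21). In each of these 3 clones the highest coculture library was below the lowest mono-culture library. In H mono-culture gave 76.7, 78.8, 79.5 and 96.5 CPM and coculture 51.3, 33.8, 31.7 and 38.7 CPM (-1.09). In KPC1 mono-culture gave 64.6, 64.1, 68.5 and 64.7 CPM and coculture 43.5, 26.6, 42.7 and 44.1 CPM (-0.73). In N mono-culture gave 71.9, 94.9, 56.7 and 53.6 CPM and coculture 44.04, 53.1, 38.6 and 45 CPM (-0.62). H, KPC1 and N were separated as well, N by a narrow margin. M was called at -0.33 (SE 0.15, adjusted p = 0.0949, edgeR), with overlapping libraries of 122 to 142 CPM alone and 88.1 to 123 CPM with fibroblasts, and this call was lost without replicate 1, 3 or 4 (adjusted p = 0.101, 0.256 and 0.283, edgeR). K was not called at -0.17 (SE 0.15), although its libraries of 87.6 to 98.8 CPM alone and 81.5 to 84.6 CPM with fibroblasts did not overlap. Mxd4 was lower in coculture in 7 of 7 lines within the first run of library numbers and in 5 of 5 within the second. The annotation holds an antisense transcript, Gm42846, that shares 514 exonic bases with Mxd4 and has no row in the count table. The sources do not state whether reads were counted by strand, so whether its reads enter the Mxd4 counts is unknown.

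The other antagonists had smaller log2 fold changes than Mxd4 over the 8 lines. Mxi1, which also fell over the lines, was called lower in E, from 109 to 139 CPM over mono-culture libraries to 80.7 to 90.7 CPM over coculture libraries (log2 fold change -0.48, SE 0.14), and was not called in the other 7 lines, where it ran from -0.21 in T to 0.00 in N. Mnt fell in E, from 91.9 to 109 CPM to 64.3 to 75.7 CPM (-0.55, SE 0.12), and in M (-0.28, SE 0.12), and was at 0.22 in H (SE 0.12), uncalled. The call in M was lost without replicate 2, 3 or 4 (adjusted p = 0.111, 0.136 and 0.317, edgeR). Mxd1 moved in both directions: it rose in E (0.39, SE 0.19) and fell in V (-0.77, SE 0.19) and KPC1 (-0.45, SE 0.19). The call in E was lost without any one replicate, and that in KPC1 without replicate 2 or 4. Mxd3, expressed in dividing cells, was called in K alone (1.60, SE 0.55), where it held 0.507 ± 0.411 CPM alone and 1.54 ± 1.19 CPM with fibroblasts (SD, n = 4) and its libraries overlapped, a call lost without replicate 3 or 4. In E it was at 6.22 ± 1.89 CPM alone and 4.02 ± 1.03 CPM with fibroblasts and was not called. Mxd3 shares 105 exonic bases with Prelid1 on the opposite strand, and Prelid1 was at 139 to 277 CPM in line means, many times the level of Mxd3, so the low Mxd3 counts are uncertain. By line, E had 8 of 10 members called (5 higher and 3 lower) against 61.3% of genes, V 7 against 61.5%, H 5 against 44% and M 5 against 38.9%. N, T and KPC1 each had 4, against 37.4%, 62.2% and 39.2%, and K had 1, against 20.5%.

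**Figure D3:**
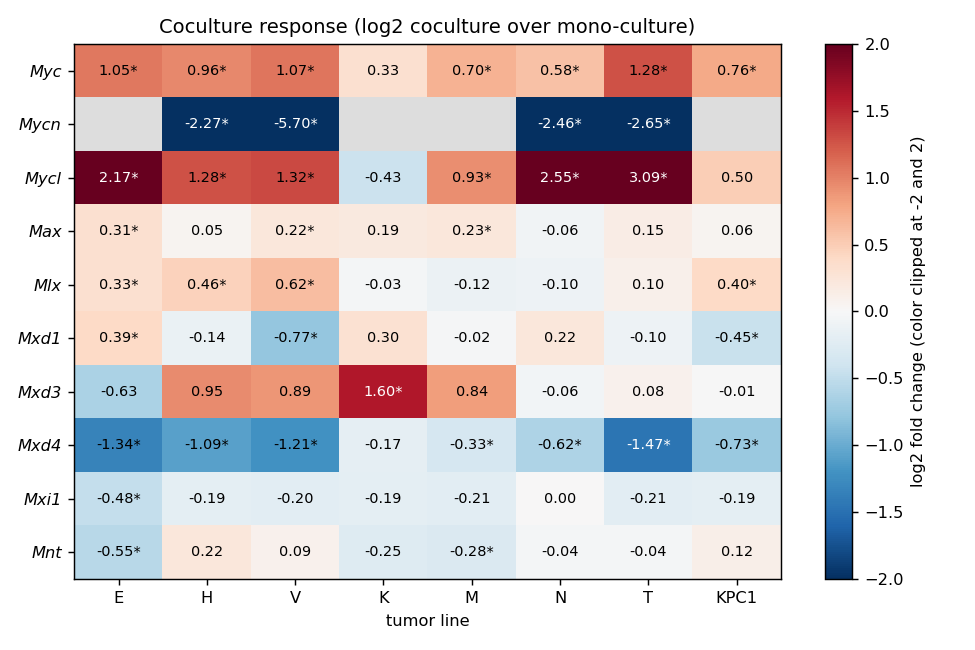
Log2 fold change of each member (rows) between coculture and mono-culture in each of 8 lines (columns), with an asterisk where edgeR's quasi-likelihood test gave an adjusted p under 0.1. Gray cells are lines in which Mycn held 0 counts in at least 1 culture. Myc is red in every line and Mxd4 blue in every line, with K palest in both.

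The balance of antagonists to Myc was lower in coculture. The summed RPKM of Mxd1, Mxd3, Mxd4, Mxi1 and Mnt over the RPKM of Myc ran from 0.333 in KPC1 to 1.17 in M in mono-culture line means (median 0.570), and from 0.172 in V to 0.629 in M in coculture (median 0.227). It was lower in 8 of 8 lines, and the libraries did not overlap in 7. In E the ratio was 0.694 ± 0.0747 alone and 0.225 ± 0.0445 with fibroblasts, and in T 0.713 ± 0.177 and 0.229 ± 0.0507 (SD, n = 4). K overlapped, at 0.718 ± 0.193 alone and 0.505 ± 0.108 with fibroblasts. M in mono-culture was the one group in which antagonists summed to more than Myc, at 66.1 against 57.96 RPKM. The numerator also moved: the sum of the 5 antagonists was lower in coculture in the mean of all 8 lines, for example 65.3 ± 4.91 against 44.2 ± 3.67 RPKM in E and 41.2 ± 3.07 against 38.8 ± 2.28 RPKM in H. These are transcript ratios and say nothing of protein.

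**Figure D4:**
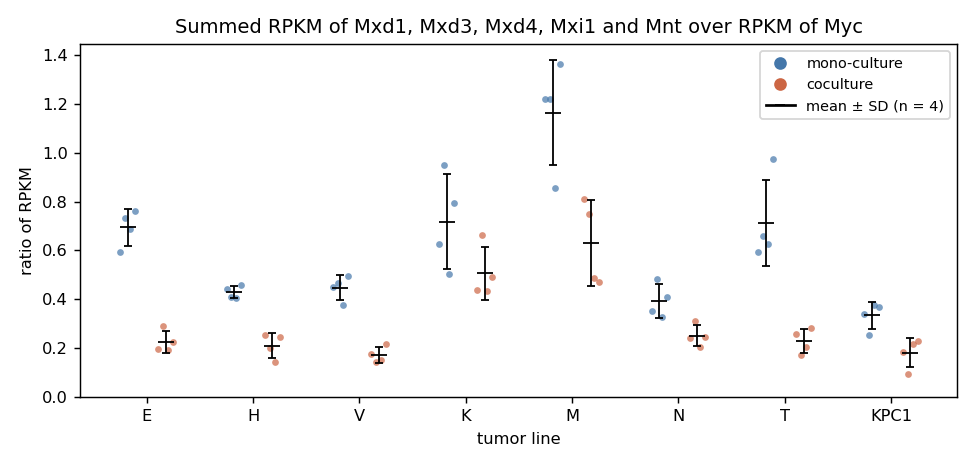
Ratio of the summed RPKM of the 5 antagonists to the RPKM of Myc in each of the 64 libraries by line and culture, with the mean and SD of 4 libraries. The ratio is lower in coculture in every line mean, and M alone is above 1 in mono-culture (1.17).

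Myc and Mxd4 ran in opposite directions across lines and cultures. Over the 16 means of log2 CPM (8 lines in 2 cultures) Pearson's r was -0.941 and Spearman's rho -0.906, and over the 8 differences between cultures r was -0.955. These points share lines and libraries and are given as a description, with no share over all genes beside these values. Within mono-culture r was -0.79 over 8 lines and -0.654 without M and KPC1, the 2 lines farthest from the median of Myc. Within coculture r was -0.951 and rho -0.619, and r was -0.523 without M and K, so the coculture value rested largely on those 2 lines. None of the other members had an r beyond 0.63 in either direction over the 16 means, Mlx (0.622) and Mxi1 (-0.548) being the farthest. The libraries of a group repeated the pattern: with the 16 group means removed, r between Myc and Mxd4 was -0.526 over 64 libraries, and it was negative in 12 of 16 groups. For 14133 genes measured in the same way the median r with Myc was -0.008, and 2.45% of them were at or below the value of Mxd4. The relation among libraries was seen in the first run of library numbers (-0.621 over 42 libraries) and not in the second (0.009 over 15). Max had the highest r with Myc among members in this view, 0.496.

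**Figure D5:**
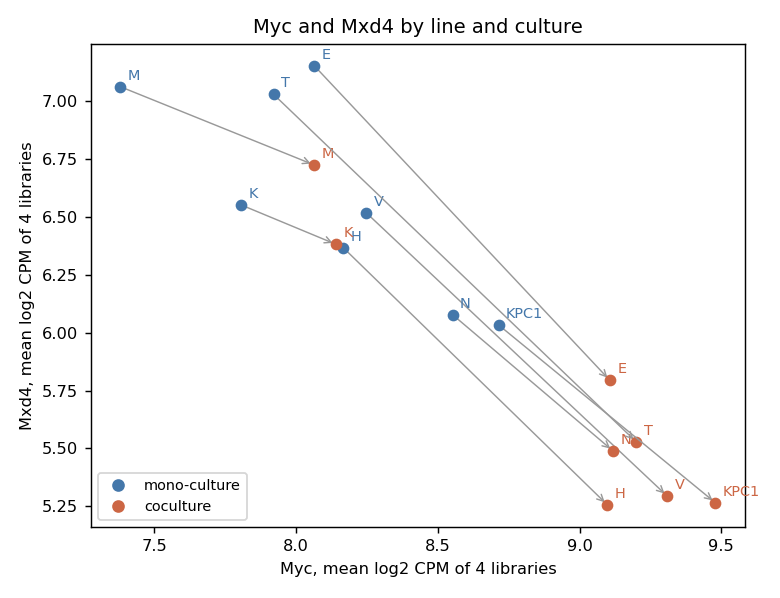
Mean log2 CPM of Myc (horizontal axis) and Mxd4 (vertical axis) in each line in mono-culture and coculture, with arrows from the first to the second for each line. Every arrow points right and down, and those of K and M are the shortest in Mxd4.

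Whether the response differed between lines was tested with an F-test over the 8 responses in the fit of 64 libraries, a test that was added after the responses had been seen. The responses of 8 of 10 members differed at an adjusted p under 0.1, against 71.3% of 14134 genes. Mycl (adjusted p = 9.34e-08) and Mxd4 (1.37e-06) differed most by edgeR's quasi-likelihood test, followed by Mlx (5.41e-05), Mnt (0.00159), Mxd1 (0.00243), Myc (0.0175), Mxd3 (0.0484) and Max (0.0871). Mycn and Mxi1 were not called (adjusted p = 0.446 and 0.576, edgeR). The call of Max was lost without any one replicate (adjusted p from 0.115 to 0.295, edgeR) and without the filter (0.348), that of Mxd3 without replicate 2 or 4, and that of Mnt without replicate 4, which left 5 members. With library numbers 1 to 43 alone, Myc (adjusted p = 0.125, edgeR) and Mxd3 (0.233) were not called and Mxi1 was (0.0618). By limma on log2(RPKM + 1) and log2(RPKM + 0.1), Mycn was called (adjusted p = 8.37e-08 and 4.84e-08), after it had passed the filter through mono-culture libraries alone.

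Group 1 and group 2 were compared because the study places these clones in different metabolic classes. By edgeR, 0 of the members were called between the groups in either culture or in the difference of response. In simulated data, 40.5% of 200 genes given a log2 change of 2 between the groups in mono-culture were called. The absence of calls therefore does not show that the groups are alike. On one sum per clone (3 against 4), edgeR's quasi-likelihood test called 0% of 14829 genes in mono-culture, 0.00679% of 14737 genes in coculture and 0.00618% of 16172 genes in the interaction, and 766, 1263 and 1214 genes had an unadjusted p under 0.05. DESeq2 called 117, 193 and 191 genes, among them Mycl in coculture and Mlx in the interaction. Myc was 0.19 higher in group 1 in mono-culture on the log2 scale (SE 0.27), 0.46 higher in coculture (SE 0.31, adjusted p = 0.645, edgeR) and had a response 0.31 larger in group 1 (SE 0.21). Mycl in coculture was 1.64 higher in group 1 (SE 0.48, adjusted p = 0.581), Mxi1 in coculture was 0.47 lower (SE 0.17, adjusted p = 0.581), and the response of Mlx was 0.52 larger in group 1 (SE 0.14, adjusted p = 0.587), all by edgeR. These 3 were the members with an unadjusted p under 0.05. The spread among clones was as wide as the difference: in coculture, Myc means were 559, 560 and 642 CPM in E, H and V, and 285, 275, 566 and 593 CPM in K, M, N and T. N and T thus had the Myc transcript level of group 1 in coculture, and K and M did not. Counts of Mycn in coculture were too low for the filter and were not tested.

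Genes that Myc is known to activate rose with it. Of a list of 28 such genes, 25 were called higher in coculture and 0 lower, against 26.8% and 25.2% of all genes, with a median log2 fold change of 0.56 against 0.006 for all 16246 genes. Cad, which catalyzes the first steps of pyrimidine synthesis, rose by 0.93 (SE 0.09, adjusted p = 0.000139), the cap-binding translation factor Eif4e by 0.55 (SE 0.07, adjusted p = 0.000817) and the mitochondrial chaperone Hspd1 by 0.57 (SE 0.08, adjusted p = 0.00107), all by edgeR's quasi-likelihood test over 8 lines. The 3 that were not called, named after their values were seen, were Nme1 (0.26), Tfap4 (0.25) and Ccnd2 (-0.01). By line, the list's median was highest in E (0.94), T (0.79) and V (0.75) and lowest in N (0.23) and K (0.31). Medians of M, H and KPC1 were 0.60, 0.39 and 0.37. The call counts were 26 of 28 in E and 10 of 28 in N, against 32.1% and 20% of all genes called higher there. N, which had the second highest Myc in mono-culture, had the lowest list median. This list and those below were chosen with earlier results of these data known, so their counts are a description. The part of Myc in the list's change was not tested.

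Of the genes that Myc is known to repress, 5 were tested, and 3 rose and 0 fell, against 52% of all genes called in this comparison (26.8% higher): Gadd45a, a stress-induced growth arrest gene, by 1.27 (SE 0.25, adjusted p = 0.00358), and the cyclin-dependent kinase inhibitors Cdkn2b by 0.44 (adjusted p = 0.0123) and Cdkn1a by 0.45 (adjusted p = 0.0735), by edgeR. The list's median was 0.44.

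Among 11 cofactors of Myc, 4 rose and 2 fell (median 0.03), near the 52% of all genes called (26.8% higher and 25.2% lower). The ATPases Ruvbl2 (0.84, SE 0.12) and Ruvbl1 (0.66, SE 0.10), which belong to chromatin remodeling complexes, and Wdr5, an adaptor that recruits Myc to chromatin (0.58, SE 0.10), rose, with Ruvbl1 and Ruvbl2 called higher in each of 8 lines, as were 2.02% of genes. The nucleosome remodeling subunit Bptf (-0.39, SE 0.05) and the histone acetyltransferase scaffold Trrap (-0.26, SE 0.06) fell. Of 13 genes of Myc protein turnover, 7 rose and 0 fell (median 0.20). The share called was again near 52%, but every call was higher, against 26.8% higher and 25.2% lower among all genes. The list was led by the mitotic kinases Aurka (1.00, SE 0.11) and Plk1 (0.89, SE 0.14) and the ubiquitin ligase subunit Skp2 (0.56, SE 0.10). These are also genes of the dividing cell. Of 10 genes of the Sin3 corepressor, through which the antagonists act, 5 rose and 0 fell (median 0.10). The share called was also near 52%, with every call higher, against 26.8% higher and 25.2% lower among all genes. Sap30 was at 0.56 (SE 0.13), Sin3a at 0.20 (SE 0.05) and Rbbp7 at 0.15 (SE 0.05). In the extended network, Mlxip (MondoA), a partner of Mlx, fell by 0.24 (SE 0.05, adjusted p = 0.00536, edgeR), Mga was at 0.04 (SE 0.07) and was not called, and Mlxipl was too low to test. Of 2 targets of the Mondo factors, the arrestin Arrdc4 rose by 1.99 (SE 0.42), from a mean of 1.94 CPM over lines to 4.86 CPM, and Txnip was at 0.08 (SE 0.27) and was not called. By edgeR, 0 of the genes in these 7 lists were called between group 1 and group 2 in either culture or in the interaction.

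The gene whose start lies within 1 Mb of the start of Myc and that passed the filter was Pvt1, a noncoding RNA that starts 52595 bases from it. Pvt1 ran from 11.4 to 37.1 CPM over line means in mono-culture and from 14.8 to 102 CPM in coculture. It was higher in coculture by 1.12 (SE 0.17, adjusted p = 0.00162, edgeR), in the mean of 8 of 8 lines, and its r with Myc over the 16 means was 0.927. Of 14124 genes, those most like Myc over the 16 means by Pearson's r were Rars (0.987), Nol9 (0.987), Cdt1 (0.981), Rae1 (0.980) and Pno1 (0.979). Rars encodes the arginyl tRNA synthetase, Nol9 a kinase of ribosomal RNA processing, Cdt1 the replication licensing factor, Rae1 an mRNA export factor and Pno1 an assembly factor of the small ribosomal subunit. By Spearman's rho, 2 of the 5 (Nol9 and Rars) remained among the top 5, and Pno1 was at place 117.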

How the data were processed

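Polyadenylated RNA was sequenced in 64 libraries (strand-specific kit, paired-end reads). The authors deposited raw read counts per gene (whole numbers, not normalized) and RPKM values, scaled by library size and gene length. The submitters' processing notes name featureCounts, edgeR and the build mm10, and the aligner and the strand setting of the counting are not given in the sources used here. Groups were taken from the clone and culture in the labels and, for group 1 and group 2, from the study's assignment of clones. Members and gene lists were chosen with earlier results of these data known.

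Counts were analyzed with edgeR 4.0.16 in R 4.3.3 (TMM, filterByExpr, quasi-likelihood test, Benjamini-Hochberg adjustment over all genes tested, threshold 0.1, the study's). Log2 CPM used a prior count of 0.5. Lines in mono-culture and responses by line were fitted on 64 libraries, the coculture response on 16 sums of 4 libraries, and the groups on 7 sums and their interaction on 14. RPKM was used between genes. A gene named in a list was one of up to 3 per direction with the smallest adjusted p in the coculture response. Alternatives were DESeq2 1.42.0, RLE normalization, no filter, limma 3.58.1 on log2(RPKM + 1) and log2(RPKM + 0.1), and leaving out libraries or lines. The code was tested on simulated data. Same-numbered libraries of the cultures correlated over 0.1 in 17 of 32 pairs (-0.072 to 0.297), and 44 of 64 libraries correlated best with their own number. The sources do not say that the numbers pair libraries, so the main fits left pairing out, and results with a replicate block are given below. Positions came from GENCODE M21 on GRCm38. Counting error is wide for Mycn and for groups with few Mxd3 or Mycl counts, where 3 counts in a group correspond to under 0.06 CPM.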

Additional observations from a re-analysis of the deposited data

Results flagged for a closer look

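Single libraries stood apart in 7 of 176 sets of 4 libraries, 4 clones or 8 responses, by the size of their gap to the next value, where chance gives about 1 in 20. They were Myc in V mono-culture (344 CPM against 287 to 294 CPM in the other 3), Mxd4 in H mono-culture (96.5 CPM against 76.7 to 79.5 CPM), Mxd4 in KPC1 mono-culture (68.5 CPM against 64.1 to 64.7 CPM), Mxi1 in N mono-culture (154 CPM against 95 to 103 CPM) and Mlx in T mono-culture (42.8 CPM against 33.9 to 34.2 CPM). In KPC1 coculture, replicate 2 held 26.6 CPM of Mxd4 against 42.7 to 44.1 CPM in the other 3, together with the highest Myc of any library (932 CPM) and the smallest total of the 64 libraries (11178721 counts). Among the 8 responses of Mxi1, that of E was lowest, at -0.48 against -0.21 to 0.001 in the others.

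Responses to coculture differed between the 8 lines, by edgeR's quasi-likelihood F-test, for Myc (adjusted p = 0.0175), Mycl (9.34e-08), Max (0.0871), Mxd1 (0.00243), Mxd3 (0.0484), Mxd4 (1.37e-06), Mnt (0.00159) and Mlx (5.41e-05).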

How the results depend on the processing

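In 21 of 21 alternatives of the coculture response the rise of Myc and the fall of Mxd4 were called. All 10 members were called between lines in 11 of 12 alternatives, 9 to 10 without single replicates. The number called in the coculture response was 5 to 9, against 7, and 6 to 7 without single replicates or lines. Of 80 pairs of member and line, 30 to 41 were called, against 38, and 30 to 36 without single replicates. The responses of 5 to 9 members differed between lines, against 8, with 5 to 7 without single replicates. Between the groups, DESeq2 called 0 members in mono-culture, 1 in coculture (Mycl) and 1 in the interaction (Mlx). With each library as a replicate, which ignores that 4 libraries share a clone, 4, 6 and 2 members were called, and 3, 6 and 2 with a replicate block. Same-numbered libraries correlated best with their own number in 44 of 64 cases, a hint from the data only. The block called 9 members in the coculture response and 41 pairs. No other count of members moved by over 1.5 times. Over all genes, edgeR called 0, 1 and 1 in these 3 comparisons, DESeq2 117, 193 and 191, edgeR without E 217, 19 and 48, and edgeR on single libraries 3925, 5148 and 3941. The causes were not tested.

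Signs turned only for values that were not called. The mono-culture difference in Mxd4 between the groups was 0.00101 with DESeq2, 0.00102 with RLE normalization and 0.0063 without a filter. With library numbers 1 to 43 alone the interaction was -0.77 for Mycl and 0.36 for Mxd3. Leaving out single lines or replicates gave these ranges. The coculture response of Mxd1 ran from -0.12 to 0.0367. In mono-culture, group 1 minus group 2 ran from -1.225 to 3.63 for Mycn, -0.95 to 0.93 for Mxd3 and -0.29 to 0.14 for Mxd4. In coculture it ran from -0.22 to 0.0474 for Mxd1 and -0.38 to 0.29 for Mxd3. The interaction ran from -3.247 to 0.24 for Mycn, -0.63 to 0.66 for Mycl, -0.53 to 0.0228 for Mxd1, -0.47 to 0.39 for Mxd3 and -0.0685 to 0.33 for Mnt. Few counts limit the precision for Mycn, Mxd3 and Mycl.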

Other observations

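Among libraries of a single line and culture, members differed in how they ran with Myc. With the 16 group means removed, Pearson's r with Myc over 64 libraries was 0.496 for Max, 0.316 for Mycl, 0.191 for Mxd1, 0.139 for Mlx and 0.002 for Mnt, and it was -0.129 for Mxi1, -0.279 for Mxd3, -0.311 for Mycn and -0.526 for Mxd4. The sign for Max was negative in 3 of 16 groups and that for Mxd4 in 12 of 16. For Mxd4 the relation was seen in the first run of library numbers (-0.621 over 42 libraries) and not in the second (0.009 over 15). Mxd3 and Mycn rest on few counts. KPC1 coculture replicate 2 had the highest Myc and the lowest Mxd4 of the 64 libraries. N was the widest group in Mxd4 in mono-culture, with the library of lowest Myc (315 CPM) also the highest in Mxd4 (94.9 CPM). These values describe libraries, share their depth and normalization, and carry no test.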
